A study of Mus musculus with 15 samples.

Results

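The 39 protein-coding genes of the mouse that encode collagen chains were followed in primary lung fibroblasts. They were all the protein-coding genes in the tables whose symbol reads Col, a number, the letter a and a number, 39 of 18078 genes. The cells came from wild-type BALB/cJ mice, and each of the 5 groups has 3 libraries, 15 in all. For 20 h the cells received IL-33/13/17A (recombinant IL-33 with IL-13 and IL-17A), IL-33/13 (IL-33 with IL-13), IL-33/17A (IL-33 with IL-17A) or IL-33 alone, or were left untreated. IL-33 is released by damaged barrier cells, IL-13 drives type 2 immunity by activating the transcription factor STAT6, and the receptor of IL-17A acts on NF-kB and on the stability of mRNA. No group received IL-13 or IL-17A without IL-33, so their effects are those on top of IL-33. The labels give no animal, culture, batch or replicate number, so each p-value reflects how far the libraries of a group differ from each other, and that spread may be purely technical.

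Collagens are proteins of the extracellular matrix in which chains wind around each other into a helix, either with copies of themselves or with partner chains from other genes. Fibrillar collagens (types I, III, V and XI here, with the cartilage type II and the minor types XXIV and XXVII) make the banded fibres of connective tissue. FACIT collagens decorate the surface of those fibres, and network collagens form sheets or lattices, such as those of basement membranes. Type VI chains form beaded filaments around cells. Transmembrane collagens stay anchored in the plasma membrane, multiplexins carry endostatin-like ends, and type VII makes anchoring fibrils. In the lung, fibroblasts are the main source of interstitial collagen, and its excess is the hallmark of fibrosis.

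By class, the 39 genes comprised 11 fibrillar, 9 network, 6 beaded, 5 FACIT, 4 transmembrane and 2 multiplexin genes, with the anchoring fibril gene Col7a1 and, as the 1 remaining gene, Col28a1. Levels are given as deposited, in TPM, a transcript abundance scaled for length and depth. These TPM values were computed over the whole gene span, introns included, so they compare 1 gene between libraries but not long genes with short ones. To compare genes, reads recovered from the TPM were divided by exonic length and rescaled to the same total in each library (exonic TPM). A gene entered the tests if it reached 1 TPM as deposited in at least 3 libraries. Of the 39 genes, 21 passed, each of them at 1 TPM or more in all 15 libraries. The other 18 did not, and none of them reached 1 TPM as deposited in any library. This filter works against genes with a long span. Col28a1 did not pass at a mean of 7.10 exonic TPM, while Col10a1 passed at 2.86.

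Recovered depth ran between 1.06e+07 and 1.51e+07 reads per library. Of the 10 fibroblast markers, all averaged at least 1 TPM in every group, and their summed level ran between 4397 and 6039 TPM. The 14 macrophage markers were also present, at higher sums of between 18324 and 20888 TPM, so the libraries held macrophage transcripts as well. Summed markers of other cell types were low, between 14.4 and 36.6 TPM for 5 mesothelial genes, 9.45 and 20.7 TPM for 5 chondrocyte genes, 5.31 and 7.69 TPM for 5 endothelial genes, 1.61 and 8.32 TPM for 4 epithelial genes and 0.738 and 3.73 TPM for 3 Schwann cell genes. The mitochondrially encoded protein genes took between 3.504% and 3.87% of the total in 6 libraries, namely IL-33/13/17A replicate 1, all 3 of IL-33/13 and replicates 2 and 3 of IL-33/17A. In the other 9 libraries they took between 4.77% and 6.13%. No label explains this split, called the mitochondrial split below. Since all IL-33/13 libraries fall on 1 side of it, results for that group were also computed with the split as a term.

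Expression was concentrated in a few chains. On the exonic scale, averaged over 15 libraries, Col1a1 had 3956 TPM, Col3a1 1903 TPM and Col1a2 1511 TPM, and these 3 genes held 63.9% of all collagen transcripts (59.8% to 67.8% by library). The basement membrane chains Col4a1 (762 exonic TPM) and Col4a2 (659) followed, together with the fibril-nucleating type V chains Col5a2 (740.5) and Col5a1 (530.2), then the FACIT chain Col12a1 (394) and the type VI chains Col6a1 (387), Col6a2 (149) and Col6a3 (137). These 11 genes held 96.5% of the total. The 18 genes that did not pass held 0.143%. They included the cartilage chain Col2a1 (0.0962 exonic TPM), the kidney basement membrane chains Col4a3 (0.104) and Col4a4 (0.0260), and Col25a1 (0.0159), a neuronal transmembrane collagen.

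**Figure D1:**
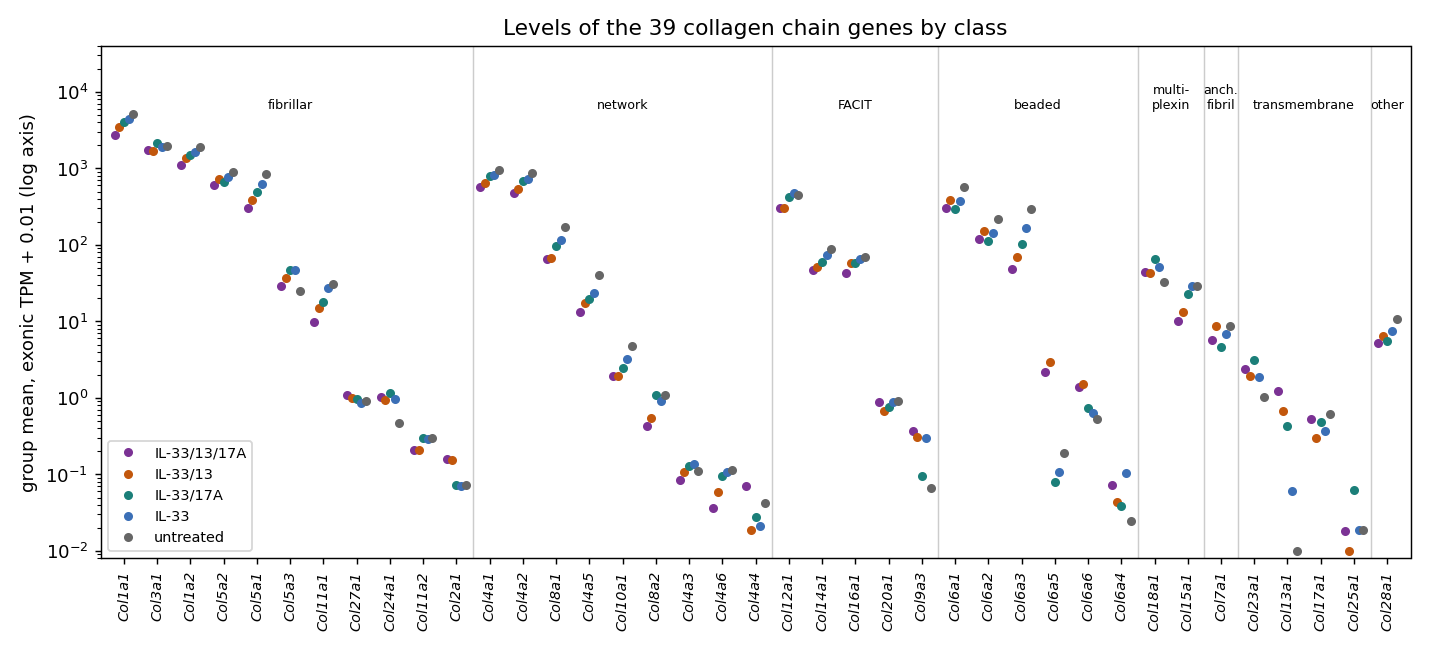
Group means of all 39 genes in exonic TPM plus 0.01 (log axis), ordered by class and by level within it; each dot is the mean of 3 libraries of 1 group. The fibrillar chains Col1a1, Col3a1 and Col1a2 lead, and many genes have their untreated dot at the top. Of the 21 tested genes, Col5a3 and Col18a1 have it at the bottom and Col3a1, Col12a1 and Col7a1 in between. Several genes below 1 TPM as deposited, such as Col23a1 and Col24a1, also have it at the bottom.

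The summed level of the 39 genes differed between the groups. On the exonic scale it was 9079, 8562 and 8283 TPM with IL-33/13/17A, 10111, 10358 and 9815 TPM with IL-33/13, 10797, 12559 and 11735 TPM with IL-33/17A, 12854, 12941 and 11883 TPM with IL-33, and 15208, 15185 and 13588 TPM in untreated libraries. Each treated group lay below all untreated libraries, and IL-33/17A overlapped IL-33 alone. The means were 8641 ± 404, 10094 ± 272, 11697 ± 882, 12559 ± 587 and 14660 ± 929 TPM in that order (SD, n = 3 each). With 3 against 3 libraries an exact permutation test cannot go below p = 0.1, so sums and ratios carry no test here. In bulk RNA, fewer collagen-producing cells and less collagen RNA per cell cannot be told apart. The 10 fibroblast markers summed to means of 4635 TPM with IL-33/13/17A, 4888 with IL-33/13 and 4658 with IL-33/17A. Their means were 5487 TPM with IL-33 and 5990 TPM in untreated libraries. Of these markers 6, 6, 5 and 5 fell against untreated with IL-33/13/17A, IL-33/13, IL-33/17A and IL-33, and 3, 2, 4 and 4 rose. The summed level of the 8 smooth muscle and pericyte markers was also lower in each treated group. It was 574 to 608 TPM with IL-33/13/17A, 1046 to 1077 with IL-33/13 and 894 to 1016 with IL-33/17A. It was 1896 to 1955 with IL-33 and 2842 to 2955 TPM in untreated libraries. Unlike the collagen sum, it was lower with IL-33/17A than with IL-33/13. All 7 of these markers that could be tested fell in each of the 4 treated groups against untreated. The marker too low to test, Rgs5, averaged 0.155 TPM in untreated libraries and between 0.193 and 0.601 TPM in the treated groups. The 5 mesothelial markers, at a much lower level, summed to means of 19.3 TPM with IL-33/13/17A, 22.6 with IL-33/13, 16.2 with IL-33/17A, 21.6 with IL-33 and 35.0 TPM in untreated libraries. Of these markers 3, 2, 3 and 2 fell against untreated in that order, and 0 rose. The 14 macrophage markers summed to means of 18712 TPM with IL-33/13/17A, 19003 with IL-33/13 and 20218 with IL-33/17A. With IL-33 the mean was 19950 TPM, and in untreated libraries it was 20578 TPM. Against untreated, 8, 8, 7 and 2 macrophage markers fell with IL-33/13/17A, IL-33/13, IL-33/17A and IL-33, and 3, 4, 3 and 3 rose. The shares of all genes called in these comparisons are given in the next paragraph. The part of any of these marker lists in the collagen results was not tested.

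Against untreated cells, IL-33/13/17A gave the broadest change. Of the 21 collagen genes tested, 19 fell and 1, Col18a1, rose at an adjusted p under 0.05, with 30.1% of all 13887 genes tested lower and 12.6% higher. The median log2 change was -0.91 over the collagen genes and -0.10 over all genes. With IL-33/13, 18 collagen genes fell and 2 rose, against 35.1% and 14.5% of all genes, and the medians were -0.61 and -0.12. With IL-33/17A, 17 fell and 2 rose, against 27.0% and 10.7%, with medians of -0.46 and -0.09. With IL-33 alone, 11 fell and 2 rose, against 8.28% and 5.92%, with medians of -0.24 and -0.05. These 4 comparisons share the untreated libraries. Lower in all 4 of them were 11 genes, or 9 under median ratios and under voom, where Col1a2 and Col4a1 were not called with IL-33. Both type IV chains of ubiquitous basement membranes, all 3 well-expressed type VI chains, Col1a2, Col5a1, Col5a2, Col4a5, Col8a1 and Col14a1 make up the 11. How many of all genes were lower in all 4 was not counted.

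Scaling the libraries by median ratios in place of the TPM total changed the balance of the whole table more than that of the collagens. Over all genes, 2842 rose and 2568 fell with IL-33/13/17A under that scaling, where the TPM as deposited gave 1755 and 4178. The pair was 3384 and 3014 in place of 2017 and 4870 with IL-33/13, 2469 and 2173 in place of 1486 and 3743 with IL-33/17A, and 1109 and 851 in place of 822 and 1150 with IL-33. The median of all genes with IL-33/13 against untreated was 0.01 under that scaling, a shift of more than 0.1. The collagen genes still went mostly down, with 18 lower and 2 higher for IL-33/13/17A, 16 and 2 for IL-33/13, 14 and 2 for IL-33/17A, and 9 and 2 for IL-33.

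Adding IL-13 lowered 16 collagen genes and raised none, both on top of IL-33 and on top of IL-33/17A. The table as a whole had 22.4% of genes lower and 10% higher in the first case, and 9.14% and 6.70% in the second. The collagen medians were -0.37 and -0.48, beside -0.08 and -0.02 over all genes. For IL-13 on IL-33 the count depended on the scaling: under median ratios 10 collagen genes fell and 3 rose, the 3 being Col6a1, Col6a2 and Col7a1. All genes then split into 2307 higher and 2048 lower, where the deposited TPM gave 1395 and 3111. With the mitochondrial split as a term, 16 fell and none rose in either comparison, while over all genes 659 rose and 761 fell with IL-13 on IL-33 and 943 rose and 1505 fell on IL-33/17A, where the fit without the term gave 930 and 1269. For IL-13 on IL-33/17A, 9 fell when only libraries outside the low-mitochondrial 6 were used, which leaves 1 IL-33/17A library. Both IL-13 additions lowered 15 of the 21 genes, and 10 under median ratios. The same joint count was not made over all genes.

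Adding IL-17A lowered 11 collagen genes on top of IL-33 and raised 1, beside 6.22% and 3.54% of all genes, and lowered 11 on top of IL-33/13 with none higher, beside 4.05% and 3.40%. The medians were -0.22 and -0.28, against -0.05 and 0.01 over all genes. Under median ratios all genes split into 717 higher and 628 lower in the first comparison, in place of 491 and 864. For IL-17A on IL-33, 6 fell when only the libraries of both groups compared were fitted and 2 (Col5a2 and Col6a3) when only libraries outside the low-mitochondrial 6 were used, a fit in which the lone IL-33/17A library takes its spread from the other groups. On IL-33/13, 7 fell with the split as a term and also without IL-33/13 replicate 2. Lower with both IL-17A additions were 9 genes, and 5 were lower in all 4 additions, namely Col5a1, Col11a1, Col15a1, Col4a2 and Col6a3. Under median ratios these counts were 6 and 3, without Col5a1 and Col4a2 in the second. With the split as a term they were 6 and 3, the second made up of Col11a1, Col4a2 and Col6a3. The 4 additions share libraries, and these joint counts were not made over all genes.

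**Figure D2:**
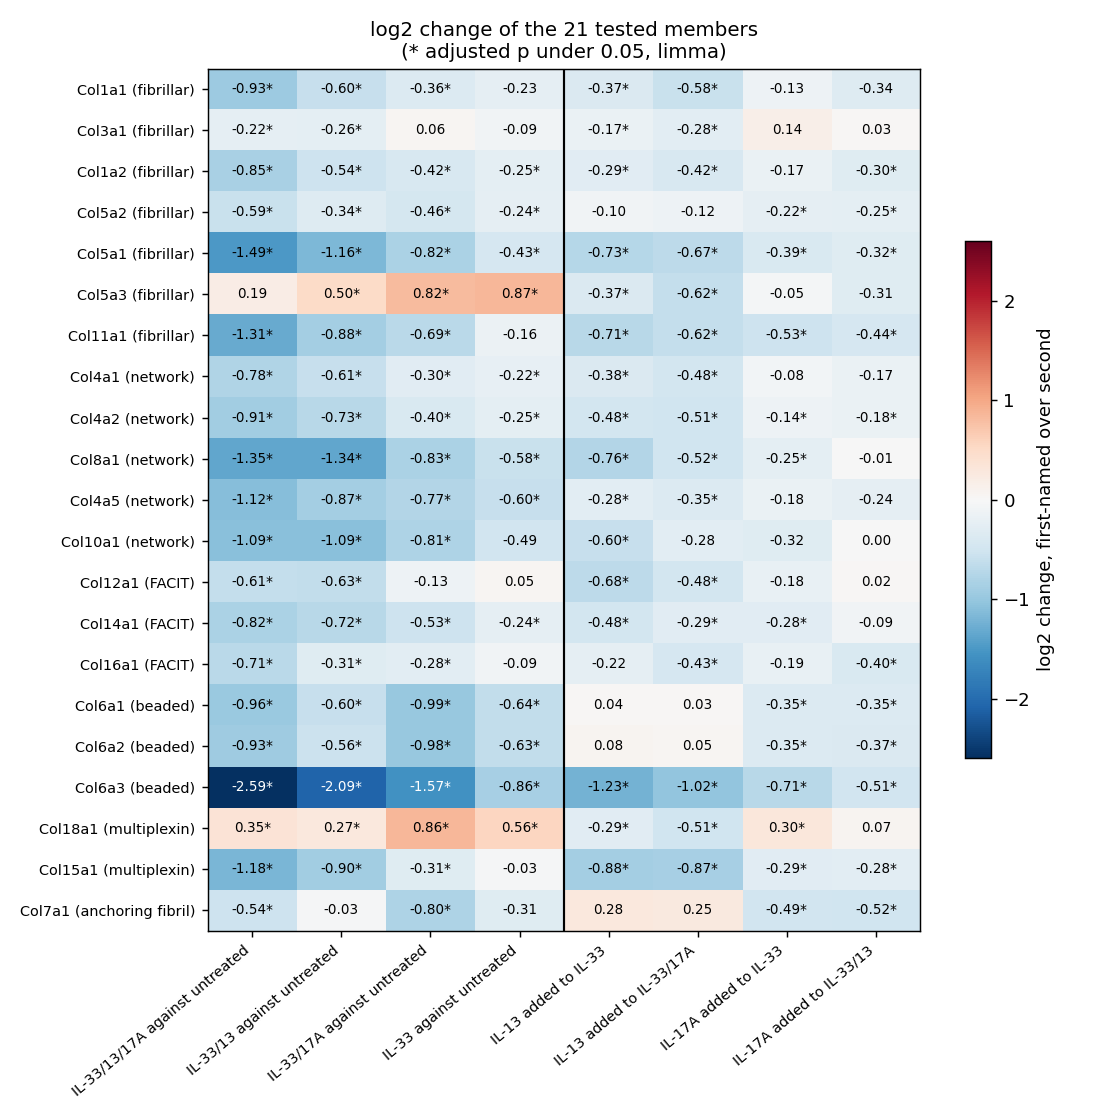
The log2 change of each of the 21 tested genes (rows, by class) in 8 comparisons (columns), on the log2(TPM + 1) scale; blue is lower and red higher in the first-named group, and stars mark an adjusted p under 0.05 from limma. Col6a3 has the lowest value in each of the 4 comparisons against untreated, down to -2.59 with IL-33/13/17A, and Col5a3 and Col18a1 are the rows with starred red cells against untreated.

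No collagen gene passed the test for an interaction of IL-13 and IL-17A on top of IL-33, the test of whether one cytokine's effect differs with the other present. In this limma fit 0.180% of all genes were called lower and 0.158% higher at an adjusted p under 0.05. At an unadjusted p under 0.05 there were 5 of the 21 collagen genes. The share of all genes at that unadjusted threshold was not counted, so the 5 have no background to be read against. A fit to the recovered reads (limma-voom) called none of 31 collagen genes either, but over all genes it called 632 higher and 795 lower, where the fit to TPM called 22 and 25. The largest values were 0.32 ± 0.26 for Col10a1 and -0.26 ± 0.13 for Col5a3 (log2, SE). Leaving out IL-33/17A replicate 1 brought 3 calls and leaving out IL-33/13/17A replicate 1 brought 2, with Col6a3 among them each time. Over all genes these fits called 1990 higher and 1048 lower, and 1474 and 807.

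In each treated group the type I chains had a lower log2 change against untreated than type III, a difference that was not tested. Col1a1, the main chain of type I collagen (chr11:94936224-94953042, plus strand, GRCm38), had 3447, 3174 and 2946 TPM with IL-33/13/17A, 4059.6, 4084 and 3938 TPM with IL-33/13, 4163, 5371 and 4767 TPM with IL-33/17A, 5471, 5409 and 4724 TPM with IL-33, and 6501, 6440.0 and 5380.4 TPM in untreated libraries. IL-33 alone overlapped the untreated libraries, while the libraries with IL-13 lay below all others. The log2 change was -0.93 ± 0.10 with IL-33/13/17A (SE, adjusted p = 7.9e-06), -0.60 with IL-33/13 (3.8e-04), -0.36 with IL-33/17A (0.013, not called under median ratios or without untreated replicate 1) and -0.23 with IL-33 (0.16). Its partner Col1a2 had 1158, 1115 and 1085 TPM with IL-33/13/17A, 1396, 1418 and 1334 TPM with IL-33/13, 1357, 1631 and 1532 TPM with IL-33/17A, 1711, 1709.6 and 1642 TPM with IL-33, and 2078, 2079.8 and 1886 TPM in untreated libraries. Its change was -0.85 ± 0.06 with IL-33/13/17A (2.1e-07), -0.54 with IL-33/13 (1.7e-05), -0.42 with IL-33/17A (1.7e-04) and -0.25 with IL-33 (0.013). The last call was lost under median ratios (0.17) and without untreated replicate 1 (0.054) or 2 (0.056). The exonic Col1a1 to Col1a2 ratio was 2.47 ± 0.11, 2.53 ± 0.03, 2.74 ± 0.10, 2.67 ± 0.15 and 2.62 ± 0.13 in the same order of groups (SD, n = 3 each), so the partners moved nearly together.

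Col3a1, the single chain of type III collagen (chr1:45311538-45349706, plus strand), had 1395, 1339 and 1314 TPM with IL-33/13/17A, 1334, 1347 and 1271 TPM with IL-33/13, 1552, 1741 and 1635 TPM with IL-33/17A, 1507, 1501 and 1448 TPM with IL-33, and 1622, 1615 and 1495 TPM in untreated libraries. The IL-33/17A and IL-33 libraries overlapped the untreated ones. Its changes of -0.22 ± 0.05 with IL-33/13/17A (adjusted p = 0.0018) and -0.26 ± 0.05 with IL-33/13 (6.3e-04) were not called under median ratios, where they were -0.09 and -0.11. With IL-33/17A it was at 0.06 ± 0.05 against untreated (0.35), and the voom fit called it higher, at 0.18 (0.036). The exonic ratio of Col1a1 to Col3a1 was 1.63, 1.56 and 1.48 with IL-33/13/17A, 2.01, 1.998 and 2.04 with IL-33/13, 1.77, 2.03 and 1.92 with IL-33/17A, 2.39, 2.38 and 2.15 with IL-33, and 2.64, 2.63 and 2.37 in untreated libraries. The 3 groups with IL-13 or IL-17A lay below IL-33 and untreated in every library.

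Type V collagen sits inside type I fibrils and starts their assembly. Its 3 chains went separate ways. Col5a1 (chr2:27886425-28039514, plus strand) had 53.6, 50.8 and 47.0 TPM with IL-33/13/17A, 63.4, 66.3 and 60.3 TPM with IL-33/13, 75.9, 84.9 and 81.9 TPM with IL-33/17A, 109.9, 114 and 94.9 TPM with IL-33, and 151, 152 and 127 TPM in untreated libraries. No library of any group overlapped the next group in that order. The change against untreated was -1.49 ± 0.08 with IL-33/13/17A (adjusted p = 2.5e-08), -1.16 with IL-33/13 (3.9e-07), -0.82 with IL-33/17A (1.1e-05) and -0.43 with IL-33 (0.0042). Adding IL-17A lowered it by less, -0.39 on IL-33 (0.012) and -0.32 on IL-33/13 (0.04), and neither call held under median ratios. The first was also lost without IL-33 replicate 2 (0.058), and the second without any 1 of 5 libraries, all but IL-33/13/17A replicate 1 (adjusted p between 0.063 and 0.16).

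Col5a2, the usual partner of Col5a1, had 136, 139.9 and 135 TPM with IL-33/13/17A, 163, 173 and 154 TPM with IL-33/13, 147, 154 and 148 TPM with IL-33/17A, 172, 179 and 173 TPM with IL-33, and 207, 212 and 201 TPM in untreated libraries. IL-33/13 overlapped IL-33 alone. Its fall against untreated ranged between -0.59 with IL-33/13/17A and -0.24 with IL-33, and IL-13 was not called on it (-0.10 ± 0.04 on IL-33, adjusted p = 0.082; -0.12 ± 0.04 on IL-33/17A, 0.057). The exonic Col5a1 to Col5a2 ratio was 0.494 ± 0.030 with IL-33/13/17A, 0.521 ± 0.005 with IL-33/13, 0.726 ± 0.027 with IL-33/17A, 0.816 ± 0.071 with IL-33 and 0.932 ± 0.071 in untreated libraries (SD, n = 3 each). All libraries with IL-13 were below all libraries without it.

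Col5a3, the least abundant type V chain (chr9:20770050-20815067, minus strand), was the only one of the 7 fibrillar genes in the TPM fit that rose against untreated. It had 14.6, 12.7 and 12.6 TPM with IL-33/13/17A, 15.7, 17.6 and 16.8 TPM with IL-33/13, 19.0, 22.4 and 21.9 TPM with IL-33/17A, 23.2, 23.1 and 19.3 TPM with IL-33, and 12.04, 12.2 and 10.3 TPM in untreated libraries. It rose by 0.87 ± 0.09 with IL-33 (adjusted p = 3.3e-05), 0.82 with IL-33/17A (2.2e-05) and 0.50 with IL-33/13 (8.2e-04), the last of which was at 0.30 and not called (0.072) with the mitochondrial split as a term. With IL-33/13/17A it was at 0.19 ± 0.09 (0.11), and was called higher under median ratios at 0.32. Adding IL-13 lowered it by -0.37 on IL-33 (0.011; not called under median ratios) and by -0.62 on IL-33/17A (6.2e-04). Relative to Col5a1 it was higher in every treated library: the exonic Col5a3 to Col5a1 ratio was 0.0967 ± 0.0044, 0.0967 ± 0.0059, 0.0954 ± 0.0034, 0.0754 ± 0.0016 and 0.0295 ± 0.0003 in the order IL-33/13/17A, IL-33/13, IL-33/17A, IL-33 and untreated (SD, n = 3 each). Col11a1, a type XI chain that can co-assemble with type V, had 1.99, 2.05 and 1.87 TPM with IL-33/13/17A, 3.08, 3.03 and 2.93 TPM with IL-33/13, 3.93, 3.59 and 3.18 TPM with IL-33/17A, 5.19, 5.77 and 5.82 TPM with IL-33, and 6.05, 6.42 and 6.65 TPM in untreated libraries. The groups did not overlap, and its change with IL-33 alone was not called (-0.16 ± 0.07, 0.14). Each addition of IL-13 or IL-17A lowered it, by between -0.71 (IL-13 on IL-33, 1.2e-05) and -0.44 (IL-17A on IL-33/13, 0.0018).

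**Figure D3:**
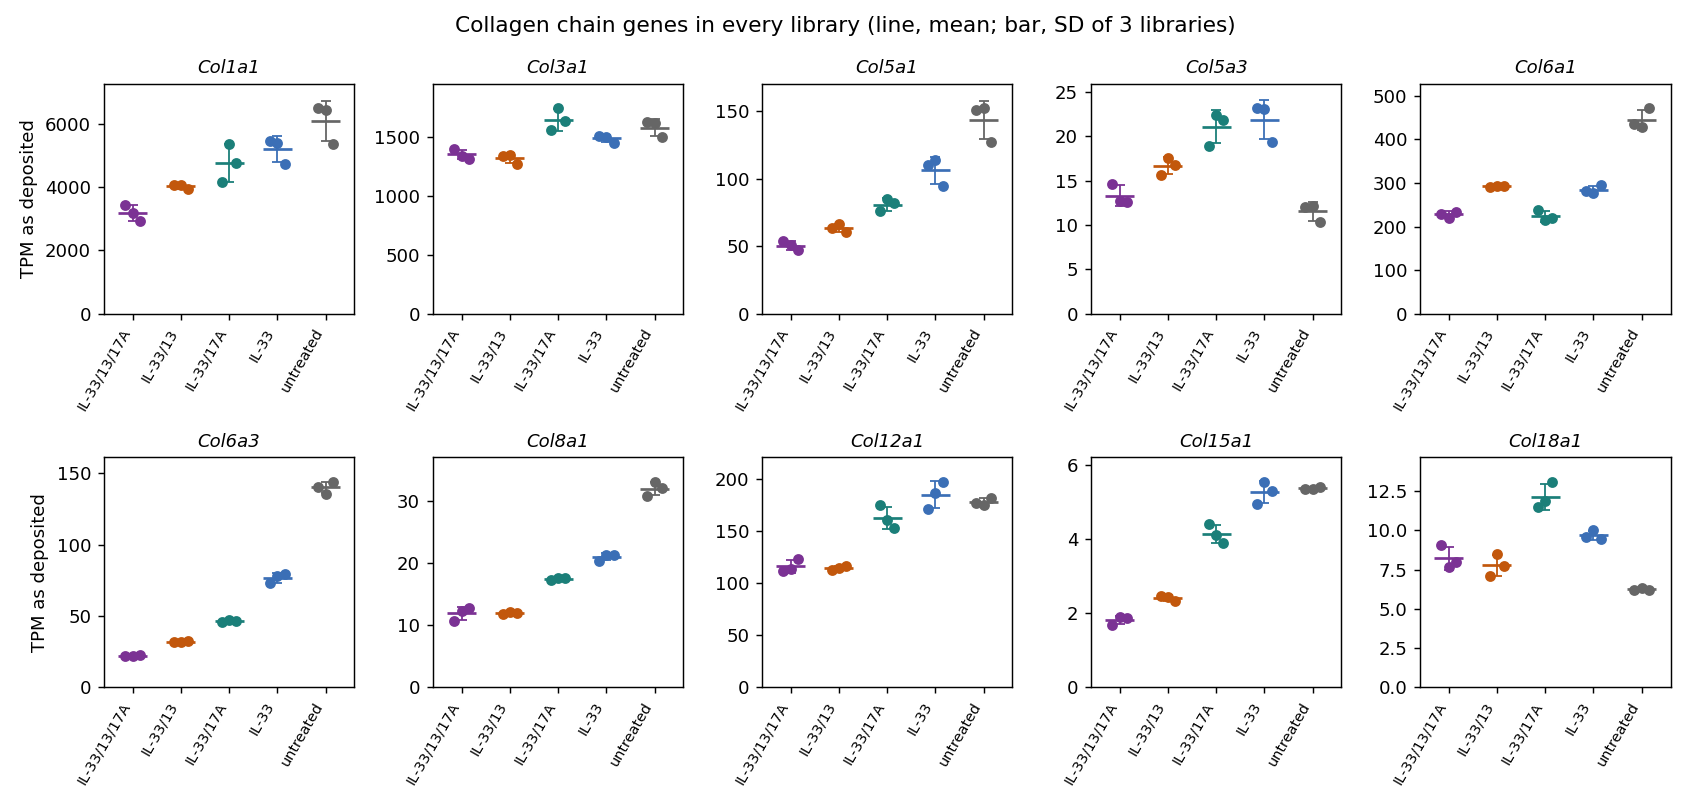
TPM as deposited of 10 genes in each of the 15 libraries (dots), with the group mean (line) and SD of 3 libraries (bar); groups run, left to right, IL-33/13/17A, IL-33/13, IL-33/17A, IL-33 and untreated. Col5a1, Col6a3 and Col8a1 are highest in untreated libraries, Col6a1 is as high with IL-33/13 as with IL-33, Col12a1 and Col15a1 are low in the IL-13 groups, and Col5a3 and Col18a1 are lowest in untreated libraries.

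Of the tested collagen genes, Col6a3 fell furthest in each comparison against untreated. Type VI filaments need Col6a1, Col6a2 and a further chain, for which Col6a3 is the common choice and Col6a4, Col6a5 and Col6a6 are alternatives. Col6a3 (chr1:90765923-90843971, minus strand) had 22.0, 22.0 and 23.1 TPM with IL-33/13/17A, 32.2, 32.1 and 32.4 TPM with IL-33/13, 46.1, 47.1 and 46.4 TPM with IL-33/17A, 72.9, 78.0 and 79.7 TPM with IL-33, and 141, 136 and 144 TPM in untreated libraries. No 2 groups overlapped. The log2 change against untreated was -2.59 ± 0.04 with IL-33/13/17A (adjusted p = 4.8e-14), -2.09 with IL-33/13 (7e-13), -1.57 with IL-33/17A (1e-11) and -0.86 with IL-33 (8.7e-09). IL-13 lowered it by -1.23 on IL-33 (9.4e-10) and -1.02 on IL-33/17A (5.5e-09), and IL-17A by -0.71 on IL-33 (1.7e-07) and -0.51 on IL-33/13 (5.8e-06).

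Col6a1 (chr10:76708792-76726168, minus strand) had 229.7, 221 and 234 TPM with IL-33/13/17A, 291, 292 and 292 TPM with IL-33/13, 238, 214 and 218 TPM with IL-33/17A, 281, 278 and 295 TPM with IL-33, and 435, 428 and 471 TPM in untreated libraries. Col6a2 (chr10:76595762-76623630, minus strand), its neighbour on the chromosome, had 106, 101 and 109 TPM with IL-33/13/17A, 134, 136 and 138 TPM with IL-33/13, 109.9, 96.1 and 98.7 TPM with IL-33/17A, 127, 127 and 134 TPM with IL-33, and 201, 192 and 209.8 TPM in untreated libraries. For both genes the groups with IL-33/13 and IL-33 lay side by side, and so did IL-33/13/17A and IL-33/17A. IL-33 lowered Col6a1 by -0.64 ± 0.05 (adjusted p = 1.1e-06) and Col6a2 by -0.63 ± 0.05 (3.1e-06), and adding IL-17A to IL-33 lowered each by a further -0.35 (4.5e-04 and 9.4e-04). Adding IL-13 to IL-33 gave 0.04 ± 0.05 for Col6a1 (0.56) and 0.08 ± 0.05 for Col6a2 (0.28), and both were called higher under median ratios, at 0.13 and 0.17.

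The Col6a1 to Col6a2 ratio on the exonic scale hardly moved, at 2.57 ± 0.02, 2.54 ± 0.03, 2.61 ± 0.04, 2.61 ± 0.01 and 2.62 ± 0.05 in IL-33/13/17A, IL-33/13, IL-33/17A, IL-33 and untreated libraries. The Col6a3 to Col6a1 ratio was 0.158, 0.164 and 0.162 with IL-33/13/17A, 0.182, 0.180 and 0.182 with IL-33/13, 0.318, 0.361 and 0.349 with IL-33/17A, 0.427, 0.462 and 0.445 with IL-33, and 0.533, 0.522 and 0.502 in untreated libraries. The 5 groups did not overlap, and the IL-13 groups were lowest.

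**Figure D4:**
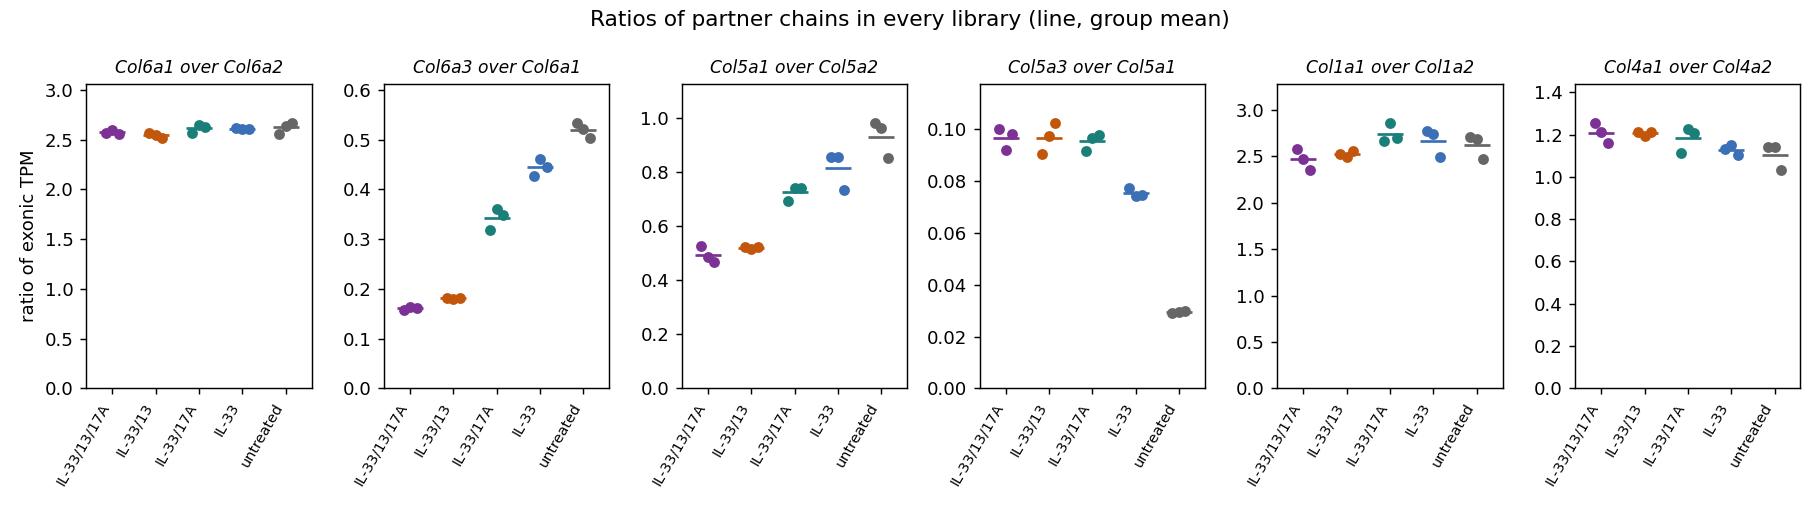
Ratios of exonic TPM between partner chains in each library (dots) with the group mean (line); groups run, left to right, IL-33/13/17A, IL-33/13, IL-33/17A, IL-33 and untreated. Col6a1 over Col6a2 stays between 2.51 and 2.66, whereas Col6a3 over Col6a1 is at most 0.182 in the libraries with IL-13 and at least 0.318 in the others, and Col5a3 over Col5a1 is near 0.03 in untreated libraries only.

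Col6a5 (chr9:105856078-105960643, minus strand), one of the alternative chains, had more reads with IL-13. It did not pass the filter on TPM, and its recovered reads were 72.9, 64.9 and 57 with IL-33/13/17A, 95.9, 78.9 and 107.9 with IL-33/13, 1, 4 and 2 with IL-33/17A, 2, 5 and 1 with IL-33, and 7, 4 and 4 in untreated libraries. Every library with IL-13 was far above every library without it. In the voom fit IL-13 raised it by 4.96 ± 0.44 on IL-33 (adjusted p = 2.3e-08) and by 4.82 ± 0.45 on IL-33/17A (7.8e-08), in a test it entered only through the IL-13 groups. The summed level of 4 epithelial markers was higher in the same libraries, between 5.97 and 8.32 TPM with IL-33/13/17A, 4.65 and 7.52 with IL-33/13, 2.36 and 2.83 with IL-33/17A, 1.81 and 2.27 with IL-33, and 1.61 and 3.19 TPM in untreated libraries, most of it Krt18 and Cdh1, while Epcam averaged at most 0.125 TPM in any group. Its part in the Col6a5 result was not tested. Col6a6, next to it in a row of type VI genes on chromosome 9, had 31, 43 and 46 reads with IL-33/13/17A, 45, 51 and 48 with IL-33/13, 23, 26 and 21 with IL-33/17A, 21, 16 and 14 with IL-33, and 20, 8 and 14 in untreated libraries. IL-13 raised it by 1.34 ± 0.25 on IL-33 (3.5e-04) and 0.92 ± 0.24 on IL-33/17A (0.0075). Even so Col6a5 stayed far below Col6a3 per length: the exonic ratio of Col6a5 to Col6a3 was 0.0445 ± 0.0054 with IL-33/13/17A, 0.0414 ± 0.0069 with IL-33/13, 0.00069 ± 0.00047 with IL-33/17A, 0.00059 ± 0.00046 with IL-33 and 0.00061 ± 0.00017 in untreated libraries. Col6a4, the remaining chain, averaged 0.0467 exonic TPM.

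Promoter windows were read for genes that share a filament yet moved apart (Col6a3 and Col6a1) and for a chain that rose with IL-13 (Col6a5). They were also read for a chain that rose with IL-33 (Col5a3) and for a pair that share a promoter and moved together (Col4a1 and Col4a2). RefSeq windows (GRCm38.p6) of 300 bases, 250 before and 50 after the annotated start, were given for 32 of the 39 genes, 34 windows in all. The genes without one were Col1a1, Col2a1, Col4a3, Col5a2, Col9a3, Col12a1 and Col14a1. Both strands were searched for the STAT6 motif (TTC, any 4 bases, GAA), the CCAAT box CCAAT, the GC box GGGCGG, the TATA box TATAAA and the NF-kB consensus. Matches are in capitals below. The windows printed are chr1:90843922-90844221 (minus strand) for Col6a3, chr10:76725995-76726294 (minus) for Col6a1, chr9:105960594-105960893 (minus) for Col6a5, chr9:20815018-20815317 (minus) for Col5a3, chr8:11312777-11313076 (minus) for Col4a1 and chr8:11312555-11312854 (plus) for Col4a2, each 5′ to 3′ along the gene.
Col6a3: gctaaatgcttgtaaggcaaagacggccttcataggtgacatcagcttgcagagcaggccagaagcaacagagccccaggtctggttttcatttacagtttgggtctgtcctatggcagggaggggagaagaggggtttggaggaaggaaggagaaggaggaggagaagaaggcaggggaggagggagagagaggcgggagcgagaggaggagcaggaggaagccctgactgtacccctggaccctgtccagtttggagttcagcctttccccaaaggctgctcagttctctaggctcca
Col6a1: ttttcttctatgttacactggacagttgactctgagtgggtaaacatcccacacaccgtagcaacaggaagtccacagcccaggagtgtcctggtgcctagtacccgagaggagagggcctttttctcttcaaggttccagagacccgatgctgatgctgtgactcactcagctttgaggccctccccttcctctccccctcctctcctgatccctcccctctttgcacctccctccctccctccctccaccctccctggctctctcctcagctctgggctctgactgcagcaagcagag
Col6a5: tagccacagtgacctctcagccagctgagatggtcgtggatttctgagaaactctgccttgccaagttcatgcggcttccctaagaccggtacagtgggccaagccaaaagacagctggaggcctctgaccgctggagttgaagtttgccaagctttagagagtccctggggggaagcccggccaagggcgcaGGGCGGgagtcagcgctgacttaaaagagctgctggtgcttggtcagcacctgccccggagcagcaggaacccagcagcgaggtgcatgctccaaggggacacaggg
Col5a3: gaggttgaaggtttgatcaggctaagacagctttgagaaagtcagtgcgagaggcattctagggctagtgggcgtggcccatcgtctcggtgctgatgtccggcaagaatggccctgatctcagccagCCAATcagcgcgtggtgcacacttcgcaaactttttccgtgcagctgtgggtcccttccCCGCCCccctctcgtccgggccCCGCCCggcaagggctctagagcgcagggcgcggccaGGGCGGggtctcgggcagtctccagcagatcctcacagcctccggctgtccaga
Col4a1: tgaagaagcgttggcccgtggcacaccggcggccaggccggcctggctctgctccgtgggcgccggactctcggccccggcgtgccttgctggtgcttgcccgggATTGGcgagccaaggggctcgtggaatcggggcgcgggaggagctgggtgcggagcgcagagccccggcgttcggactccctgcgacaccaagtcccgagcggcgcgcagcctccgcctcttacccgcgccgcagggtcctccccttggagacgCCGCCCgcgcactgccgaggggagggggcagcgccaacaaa
Col4a2: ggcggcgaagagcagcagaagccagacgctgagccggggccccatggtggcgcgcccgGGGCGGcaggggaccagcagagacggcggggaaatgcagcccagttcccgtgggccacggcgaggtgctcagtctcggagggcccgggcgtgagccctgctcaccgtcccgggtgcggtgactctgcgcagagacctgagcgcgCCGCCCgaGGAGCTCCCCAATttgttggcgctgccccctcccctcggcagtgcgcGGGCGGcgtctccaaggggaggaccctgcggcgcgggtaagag
The GC box was in 22 of the 34 collagen windows (64.7%) and in 35.7% of all 32851 windows of the same length. CCAAT was in 12 (35.3%) against 37.4%, the TATA box in 5 (14.7%) against 13.6%, and the NF-kB consensus in 5 (14.7%) against 8.46%. The STAT6 motif was in 0 collagen windows and in 6.95% of all windows. In Col4a2 the NF-kB consensus and a CCAAT box overlap. The windows of Col6a3 and Col6a1 held none of the 5 motifs, Col6a5 held a GC box only, and Col5a3 a CCAAT box with 3 GC boxes. Such matches describe letters in these windows and say nothing of binding.

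Col4a1 (chr8:11198423-11312826, minus strand) and Col4a2 (chr8:11312805-11449287, plus strand) lie head to head, overlapping by 22 bases, and encode the chains of type IV collagen found in most basement membranes. Col4a1 had 119, 109.8 and 106 TPM with IL-33/13/17A, 125, 130.1 and 122 TPM with IL-33/13, 149, 159.98 and 159 TPM with IL-33/17A, 164, 170.1 and 159 TPM with IL-33, and 198, 197 and 181 TPM in untreated libraries. Col4a2 had 70.3, 67.4 and 68.1 TPM with IL-33/13/17A, 77.0, 81.0 and 74.8 TPM with IL-33/13, 99.4, 96.9 and 98.0 TPM with IL-33/17A, 108, 110.1 and 107 TPM with IL-33, and 129, 129 and 130.5 TPM in untreated libraries. Both genes were highest in untreated libraries and lowest with IL-33/13/17A. Against untreated their changes were -0.78 ± 0.05 and -0.91 ± 0.03 with IL-33/13/17A (adjusted p = 9.5e-08 and 2.9e-10) and -0.22 and -0.25 with IL-33 (0.011 and 1.7e-04). The Col4a1 call with IL-33 was lost under median ratios (-0.16, 0.19) and under voom (-0.16, 0.11), and its call with IL-33/17A under median ratios (-0.18, 0.083). IL-13 lowered them by -0.38 and -0.48 on IL-33 (2e-04 and 8.6e-07). IL-17A on IL-33 lowered Col4a2 by -0.14 (0.016), a call lost under median ratios and without IL-33 replicate 2 (0.072), IL-33/17A replicate 2 (0.067) or IL-33/17A replicate 3 (0.059), and gave -0.08 ± 0.05 for Col4a1 (0.37).

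Col8a1, a network chain of vessel walls, fell with each cytokine mix, and by nearly the same amount in both groups with IL-13. Its TPM were 10.7, 12.3 and 12.7 with IL-33/13/17A, 11.8, 12.2 and 12.02 with IL-33/13, 17.2, 17.6 and 17.7 with IL-33/17A, 20.4, 21.3 and 21.3 with IL-33, and 30.8, 33.0 and 32.0 in untreated libraries. IL-33/13/17A and IL-33/13 overlapped and lay below all other libraries. The change against untreated was -1.35 ± 0.05 (adjusted p = 6.9e-10) and -1.34 ± 0.05 (1.3e-09) in these groups, -0.83 with IL-33/17A and -0.58 with IL-33. Adding IL-17A gave -0.25 on IL-33 (0.011) and -0.01 ± 0.05 on IL-33/13 (0.92), and the difference between these was not called (0.24 ± 0.08, 0.099). The basement membrane chain Col4a5 and Col10a1, a chain of growth plate cartilage, were lower as well. Col4a5 had at most 1.72 TPM in any library with IL-13 and at least 3.69 TPM in untreated libraries, and changed by -1.12 with IL-33/13/17A (5.8e-08). Col10a1 ran between 2.02 and 3.21 TPM with IL-33/13/17A and between 5.68 and 7.97 TPM in untreated libraries (-1.09 ± 0.18, 3.8e-04).

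The multiplexins, whose ends can be cut off as endostatin and related fragments, split. Col18a1 (chr10:77052178-77166548, minus strand) had 9.04, 7.64 and 7.99 TPM with IL-33/13/17A, 7.12, 8.46 and 7.73 TPM with IL-33/13, 11.5, 11.9 and 13.1 TPM with IL-33/17A, 9.57, 9.99 and 9.46 TPM with IL-33, and 6.21, 6.34 and 6.18 TPM in untreated libraries. Every treated library was above every untreated one. It rose by 0.35 ± 0.07 with IL-33/13/17A (adjusted p = 0.0016), 0.27 with IL-33/13 (0.0063; 0.12 and not called with the mitochondrial split as a term), 0.86 with IL-33/17A (1.1e-06) and 0.56 with IL-33 (1.3e-04). IL-13 lowered it by -0.29 on IL-33 (0.0092; not called under median ratios) and -0.51 on IL-33/17A (3.5e-04). IL-17A raised it by 0.30 on IL-33 (0.017), and this call was lost with the mitochondrial split as a term (0.20, adjusted p = 0.15), and also without IL-33 replicate 1 (0.052), without IL-33 replicate 3 (0.061) or without IL-33/17A replicate 3 (0.084). Col15a1 had 1.69, 1.89 and 1.87 TPM with IL-33/13/17A, 2.46, 2.44 and 2.32 TPM with IL-33/13, 4.40, 4.10 and 3.91 TPM with IL-33/17A, 4.95, 5.54 and 5.30 TPM with IL-33, and 5.35, 5.36 and 5.41 TPM in untreated libraries. IL-33 alone overlapped untreated (-0.03 ± 0.06, 0.81). IL-13 lowered it by -0.88 on IL-33 (5.1e-07) and -0.87 on IL-33/17A (6.9e-07), while IL-17A gave -0.29 on IL-33 (0.0064) and -0.28 on IL-33/13 (0.011, lost without IL-33/13 replicate 2 at 0.051).

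Among the FACIT genes, Col12a1 had 112, 113 and 123 TPM with IL-33/13/17A, 112, 115 and 116 TPM with IL-33/13, 174, 159.96 and 153 TPM with IL-33/17A, 171, 186 and 197 TPM with IL-33, and 176, 175 and 182 TPM in untreated libraries. The libraries with IL-13 lay below all others. Without IL-13 no change was called against untreated (-0.13 ± 0.06 with IL-33/17A, adjusted p = 0.097; 0.05 ± 0.06 with IL-33, 0.62). IL-13 lowered it by -0.68 on IL-33 (5.3e-06) and -0.48 on IL-33/17A (1.4e-04). Col14a1, which binds fibrils through decorin, had 4.49, 4.74 and 4.70 TPM with IL-33/13/17A, 4.78, 5.18 and 5.12 TPM with IL-33/13, 6.15, 5.84 and 5.69 TPM with IL-33/17A, 6.97, 7.66 and 7.57 TPM with IL-33, and 8.64, 9.33 and 8.85 TPM in untreated libraries. It fell with each treatment, from -0.24 ± 0.05 with IL-33 (0.0062) to -0.82 ± 0.05 with IL-33/13/17A (6.2e-08). Col16a1 ran between 15.7 and 17.9 TPM with IL-33/13/17A and between 25.8 and 29.6 TPM in untreated libraries (-0.71 ± 0.08, 2.1e-05).

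Col7a1, the anchoring fibril chain, had its lowest group means with IL-33/17A and IL-33/13/17A. It had 6.18, 5.33 and 5.43 TPM with IL-33/13/17A, 8.08, 9.40 and 8.08 TPM with IL-33/13, 4.48, 4.503 and 4.74 TPM with IL-33/17A, 7.49, 7.58 and 5.55 TPM with IL-33, and 9.36, 9.06 and 7.68 TPM in untreated libraries. IL-17A lowered it by -0.49 ± 0.11 on IL-33 (adjusted p = 0.011) and -0.52 ± 0.11 on IL-33/13 (0.011). These calls were lost without IL-33 replicate 2 (0.056) in the first case, and without IL-33/13 replicate 2 (0.059), IL-33/13/17A replicate 2 (0.054) or IL-33/13/17A replicate 3 (0.052) in the second. The first was also lost with only the compared groups (0.092) and outside the low-mitochondrial libraries (0.25), and the second with the mitochondrial split as a term (-0.45, 0.093). IL-13 gave 0.28 ± 0.11 on IL-33 (0.06) and 0.25 ± 0.11 on IL-33/17A (0.14), the first of which was called higher under median ratios.

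Of the 18 collagen genes under 1 TPM as deposited, 10 had enough reads for the voom fit, which asks for 10 reads in at least 3 libraries. The transmembrane collagen Col23a1 had 50, 42 and 40 reads with IL-33/13/17A, 47, 35 and 34 with IL-33/13, 60, 51 and 76 with IL-33/17A, 25, 34 and 36 with IL-33, and 22, 14 and 16 in untreated libraries. Each treated group was above untreated, with changes between 0.87 ± 0.24 (IL-33, adjusted p = 0.013) and 1.63 ± 0.22 (IL-33/17A, 3.1e-06). A limma fit to TPM with no filter did not call Col23a1 with IL-33 (0.06, adjusted p = 0.11). Col13a1, a transmembrane collagen of the neuromuscular junction, had 18, 28 and 8 reads with IL-33/13/17A, 16, 9 and 7 with IL-33/13, 3, 5 and 14 with IL-33/17A, 1, 1 and 0 with IL-33, and 0 in all 3 untreated libraries. Set against 3 reads over the untreated group, scaled by depth, its observed level was 17.5-fold higher with IL-33/13/17A, 9.58-fold with IL-33/13 and 6.36-fold with IL-33/17A. The 3 reads allow for counting error in the untreated group only, so these folds are not lower bounds.

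Col28a1, a collagen with von Willebrand domains, went the other way, with 87.9, 81.9 and 71 reads with IL-33/13/17A, 97.9, 126.9 and 99.9 with IL-33/13, 84, 81 and 119.9 with IL-33/17A, 92.9, 118 and 114.9 with IL-33, and 151.9, 159 and 152.8 in untreated libraries. It fell in each group, from -0.50 ± 0.12 with IL-33 (adjusted p = 0.0051) to -0.98 ± 0.13 with IL-33/13/17A (2.4e-06). The fibrillar gene Col24a1 had 22 to 27 reads with IL-33/13/17A and 8 to 14 in untreated libraries (1.30 ± 0.31, 0.0017), and Col8a2 had 4 to 8 with IL-33/13/17A and 9 to 18 in untreated libraries (-1.24 ± 0.40, 0.017). Col17a1, Col20a1 and Col27a1 were not called in any comparison of the voom fit, though a TPM fit with no filter called Col17a1 lower with IL-33/13 against untreated (-0.16, adjusted p = 0.022). The other 8 genes, Col2a1, Col4a3, Col4a4, Col4a6, Col6a4, Col9a3, Col11a2 and Col25a1, had too few reads for the voom test. The limma fit with no filter called Col9a3 higher against untreated with IL-33/13 (0.15, adjusted p = 0.028) and IL-33/13/17A (0.19, 0.012). It also called Col9a3 higher with IL-13 on IL-33/17A (0.17, 0.046). Col9a3 had at most 5.03 reads in any library.

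**Figure D5:**
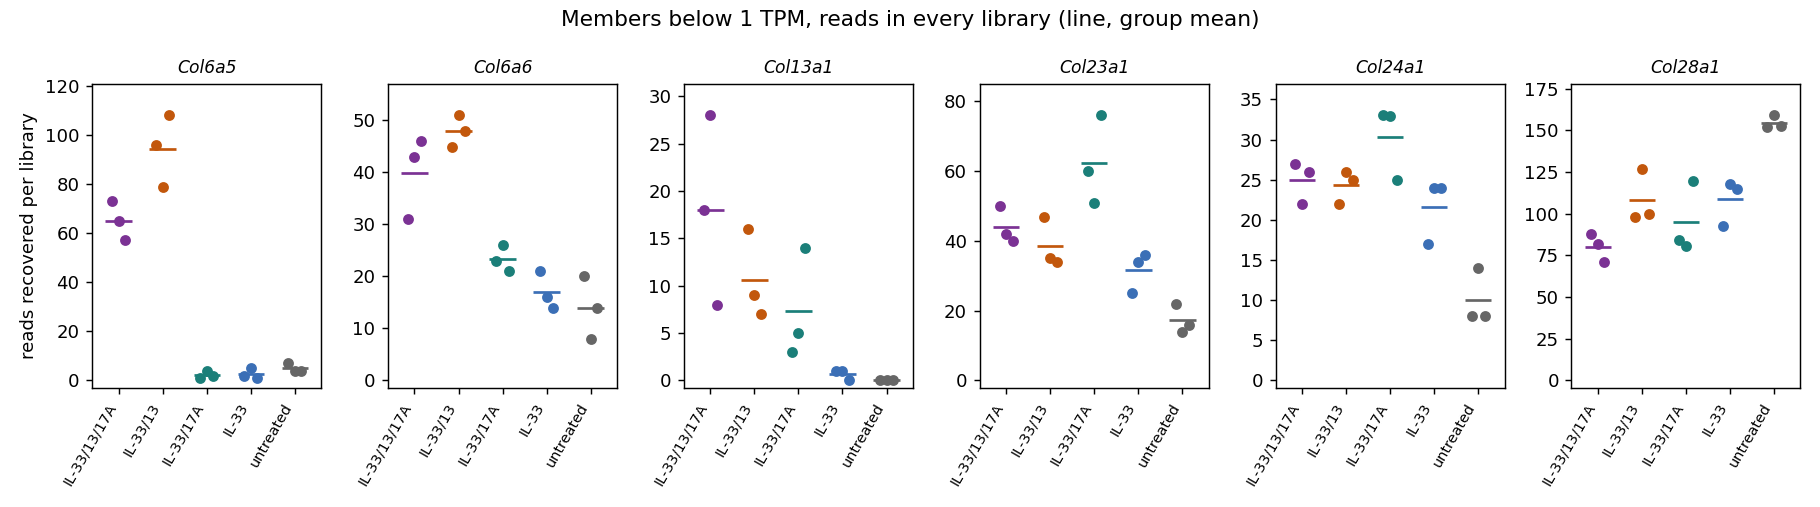
Recovered reads in each library (dots) of 6 genes below 1 TPM as deposited, with the group mean (line). Groups run, left to right, IL-33/13/17A, IL-33/13, IL-33/17A, IL-33 and untreated. Col6a5 has 57 reads or more in each library with IL-13 and 7 or fewer in the others, and Col13a1 has 0 reads in untreated libraries.

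The machinery that makes and remodels collagen did not move as one with the chains. The counts here and in the next paragraph are from the fit to TPM as deposited. They were not repeated under median ratios or with the mitochondrial split as a term. Of the 7 tested receptors and uptake proteins, all 7 fell with IL-13 on IL-33, where 22.4% of all genes were lower and 10% higher, led by the collagen-binding integrin chain Itga11 (-1.73 ± 0.07, adjusted p = 4.3e-09) and its relative Itga1 (-0.52 ± 0.09, 0.0014). Of 12 hydroxylases and glycosyltransferases, which modify the chains in the endoplasmic reticulum, 6 fell and 1 rose, with P4ha3 at -0.73 ± 0.08 (3.5e-05) and P4ha2 at -0.40 ± 0.04 (1.7e-05). Of 6 crosslinking enzymes, 4 rose and 1 fell, with the lysyl oxidase-like genes Loxl3 at 1.19 ± 0.06 (4.7e-08) and Loxl4 at 0.98 ± 0.07 (1.2e-06). Of 5 propeptide-processing genes 2 rose and 2 fell, with the processing enhancer Pcolce2 at 1.63 ± 0.08 (3.5e-08) and the N-propeptidase Adamts2 at -0.61 ± 0.04 (8.9e-07).

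In the list of chaperones, export factors and related genes 2 were higher and 5 lower of 13. The chaperone Hspa5 was at 0.35 ± 0.03 (adjusted p = 1.1e-05) and Fkbp7 at -0.27 ± 0.06 (0.0074). Of 6 proteases that cut collagen, 2 rose and 3 fell, with the collagenase Mmp13 at 1.06 ± 0.08 (1.9e-06) and the cathepsin Ctsk at -0.41 ± 0.07 (8.2e-04). IL-17A on IL-33, with 3.54% of all genes higher and 6.22% lower, gave other counts. Among crosslinking enzymes 0 were higher and 4 lower (Loxl4 -0.68 ± 0.07, 5.5e-05, and Loxl2 -0.31 ± 0.06, 0.0063). In the list of chaperones, export factors and related genes 3 were higher and 0 lower. The 2 largest of these rises were in the related genes Tmem38b (0.37 ± 0.07, 0.0048) and Creb3l1 (0.36 ± 0.05, 0.0012). Among proteases 2 were higher and 1 lower (Mmp9 1.25 ± 0.05, 9.9e-09, and Mmp14 -0.32 ± 0.04, 1.8e-04). IL-17A on IL-33 also lowered 4 of the 7 receptors, 2 of the 12 hydroxylases and glycosyltransferases and 2 of the 5 processing genes, and raised none of these. With IL-33 alone against untreated, 3 of 6 proteases rose and 1 fell, beside 5.92% and 8.28% of all genes. Mmp9 rose by 3.73 ± 0.05 (9e-14) and Mmp13 by 2.17 ± 0.08 (1.6e-09).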

How the data were processed

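Total RNA of the 15 samples was prepared with an RNeasy kit and sequenced on a NovaSeq instrument, per the labels' protocols. The submitters' processing notes name HISAT2 and mm10, with no version. The counting tool is not given in the sources used here. The authors deposited TPM per gene for each library, with a gene length that equals the genomic span. TPM times this deposited length, divided by its smallest step, came out as whole read counts (within 0.03) for 89.2% to 90.4% of values up to 30 reads, which gave the depth. The remainder were fractional, so the reads are estimates. Exonic lengths came from GENCODE vM21, in which all 39 genes have the same start and end. Whether counting used strand is not given, so reads from overlapping antisense genes cannot be told apart. Between exons, any 1 other gene overlaps at most 1.44% of the exonic length of the 21 genes tested. Overlaps within introns were not measured, and whether reads in introns were counted is not given. If they were, exonic TPM and shares would be too high for genes with long introns.

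Groups came from the treatment label, and replicate numbers only from accession order. Tests used limma 3.58.1 in R 4.3.3 (trend, robust) on log2(TPM + 1), 1 mean per group over 15 libraries, on the 13887 genes that 3 or more libraries held at 1 TPM or above, with Benjamini-Hochberg adjustment over all genes of a comparison and a threshold of 0.05. Fold changes on this scale understate low genes. The fit was tested on simulated data. Alternatives were pseudocounts, filters, median-ratio scaling, limma-voom on recovered reads, the mitochondrial split, fewer libraries and a non-robust fit. Values were given in every library for the 2 most abundant genes of each class, the 3 largest rises and falls called in each comparison, and their partner chains; for the pathway lists, the 2 largest called changes. Col10a1, Col4a5, Col16a1, Col24a1 and Col8a2 fall outside this rule and were named after their values were seen. The gene set, classes and lists were chosen with earlier results of these data known. No 2 libraries held identical values.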

Additional observations from a re-analysis of the deposited data

How the results depend on the processing

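Of the 127 calls of collagen genes over the 9 comparisons, 0 changed direction under any alternative run, and 14 were lost without 1 single library; 18 were lost under median ratios, 13 under voom, 10 with the mitochondrial split as a term, 14 with only the compared groups and 0 with pseudocounts of 0.1 or 5. Outside the low-mitochondrial libraries 18 were lost and 62 kept. The counts of collagen genes called (higher and lower together) stayed within 1.5 times the reported ones except as follows. For IL-17A on IL-33, 12 became 6 with only the compared groups and 2 with only libraries outside the low-mitochondrial 6. For IL-17A on IL-33/13, 11 became 7 with the split as a term and also without IL-33/13 replicate 2. For IL-13 on IL-33/17A, 16 became 9 outside those 6. For the interaction, 0 became 3 without IL-33/17A replicate 1 and 2 without IL-33/13/17A replicate 1. The cause was not tested, though the restricted fits hold fewer libraries. Leaving out 1 library at a time gave 12 to 13 calls for IL-33, 17 to 19 for IL-33/17A, 20 to 20 for IL-33/13 and 20 to 20 for IL-33/13/17A against untreated, 9 to 14 and 7 to 14 for IL-17A on IL-33 and on IL-33/13, 14 to 17 and 16 to 16 for IL-13 on IL-33 and on IL-33/17A, and 0 to 3 for the interaction. The summed collagen TPM as deposited changed against untreated by -0.80 on the log2 scale with IL-33/13/17A and -0.55 with IL-33/13, and by -0.67 and -0.40 under median ratios. Over all genes, voom called 632 higher and 795 lower for the interaction, where the fit to TPM called 22 and 25. With the split as a term, 659 and 761 were called for IL-13 on IL-33 in place of 1395 and 3111, and 1287 and 2262 for IL-33/13 against untreated in place of 2017 and 4870. The same term gave 1244 and 2208 for IL-33/17A against untreated in place of 1486 and 3743, 369 and 466 for IL-17A on IL-33 in place of 491 and 864, 239 and 327 for IL-17A on IL-33/13 in place of 472 and 562, and 1 and 1 for the interaction. With only the compared groups the counts were 237 and 283 for IL-17A on IL-33, 296 and 278 for IL-17A on IL-33/13, and 371 and 417 for IL-13 on IL-33/17A in place of 930 and 1269. Outside the low-mitochondrial libraries they were 145 and 171 for IL-17A on IL-33, 874 and 1265 for IL-33/17A against untreated, and 333 and 506 for IL-13 on IL-33/17A. For IL-17A on IL-33/13 voom called 909 and 878. Without IL-33/17A replicate 1, 972 and 2085 were called for IL-17A on IL-33, and without IL-33/13/17A replicate 1, 961 lower genes for IL-17A on IL-33/13 in place of 562. The interaction had 43 and 53 under median ratios and 34 and 38 with a pseudocount of 5. A fit without libraries of the low-mitochondrial 6 was not possible for comparisons with IL-33/13. No paired analysis was possible because the labels carry no replicate numbers. Genes under about 10 reads per library are limited by depth.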
